A study of Mus musculus with 6 samples.

Results

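The guanylate-binding proteins (GBPs) and the immunity-related GTPases (IRGs) are GTP-hydrolysing enzymes induced by interferon-γ. The 10 genes described here were taken by symbol from a fixed list, Gbp2 to Gbp9 for the GBPs and Irgm1 and Igtp for the IRGs, and all 10 were found among the 24628 genes of the deposited table. The table holds RNA-seq values of 6 libraries made from mouse lymphocytes, in a study of group 1 innate lymphoid cells (ILC1s) that compared wild-type with conditional knockout (cKO) cells for Rora, the gene of the nuclear receptor RORα. Of these libraries, 3 are titled Rorafl/fl and are called floxed here, and 3 are titled treatment, which leaves them as the cKO group. The column names of the cKO libraries add Ncr1, the gene of the receptor NKp46, to Rora, while the labels name neither the Cre allele nor the cells in which it acts. The labels give no age, sex, sort gate or number of animals for either group. They also do not say whether replicates came from separate animals, so a p-value here reflects no more than the spread among the libraries, and that spread may be technical.

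Interferon-γ binds a receptor of the chains IFNGR1 and IFNGR2, the kinases JAK1 and JAK2 relay the signal, and gamma-activated sites (GAS) in the promoters of target genes respond to it. Type I interferons act through the interferon-stimulated response element (ISRE), which interferon regulatory factors such as IRF1 also bind. GBPs are large, dynamin-like GTPases that assemble on the membranes of microbes and of the vacuoles that hold them. Among the IRGs, the effector proteins of the GKS subfamily load onto such vacuoles, whereas Irgm1, Irgm2 and Irgm3 (the product of Igtp) form the GMS subfamily, which sits on the cell's own membranes and keeps the effectors inactive there. ILC1s and natural killer cells are themselves major producers of interferon-γ.

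The libraries held 20152146 to 22440170 reads assigned to genes, and each of the 10 genes rested on 1217 to 9077 reads per library. Rora was at 6.92, 7.41 and 7.91 RPKM (reads per kilobase of exon, scaled to library size) in the floxed libraries and 5.69, 6.29 and 6.24 RPKM in the cKO libraries. Every cKO value lay below every floxed value, and the log2 difference of -0.25 did not pass the test described next (limma, adjusted p = 0.242), though it did with voom on recovered reads (adjusted p = 0.0238). The labels do not say which exons are removed, so this level does not check the deletion.

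Igtp and Irgm1 stood at 71.6 and 69.4% of their floxed mean in the cKO libraries, and the 8 GBP genes at 78.9 to 112%. The groups did not overlap in either IRG gene or in 6 of the 8 GBP genes, and Irgm1 did not pass the test. Differences were tested with limma on log2(RPKM + 1), with Benjamini-Hochberg adjustment over 12731 genes and a threshold of 0.05. All 10 genes passed the filter on low values. Igtp and Gbp6 fell, so that 2 of the 10 were called, against 1.32% of all tested genes in either direction and 0.668% in the lower direction. None of the 10 was called higher by limma, against 0.652% of all tested genes. At an unadjusted limma p under 0.05, 6 of the 10 were lower, against 8.60% of all tested genes, and Gbp3 alone was higher, against 5.55%. With limma voom on recovered reads 4 of the 10 were called lower, against 2.42% of all tested genes, and 0 higher, against 1.76%. The median log2 difference (cKO minus floxed) was -0.13 over the 10 genes and -0.03 over all tested genes. Of the 10 genes, 7 had all cKO values below all floxed values, as did 12.7% of tested genes, and 1 had them all above, as did 7.61%. In bulk RNA, fewer expressing cells and less RNA per cell cannot be told apart.

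Promoters of some of the genes were read for interferon-responsive motifs. Of the 2 called genes this covers Igtp but not Gbp6, for which no window was found. RefSeq promoter windows on GRCm38.p6, from 250 bases before to 50 after an annotated start, were found for 6 of the 10 genes, namely Gbp2, Gbp3, Gbp5, Gbp7, Irgm1 and Igtp. The 120 bases before the start are given 5′ to 3′ on the strand of the gene, for these 6 genes and for 3 further IRG genes described later. Those 3 are the ones that share a motif arrangement with Igtp, and other family genes with a window are not printed. Capitals mark matches to GAS (TTCNNNGAA) or to the core of the ISRE (GAAA, any 2 bases, GAAA, on either strand).
Igtp, chr11:58199436-58199555, plus strand: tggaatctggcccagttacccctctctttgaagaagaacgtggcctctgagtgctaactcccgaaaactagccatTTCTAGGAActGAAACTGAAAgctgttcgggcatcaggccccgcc
Irgm2, chr11:58214857-58214976, plus strand: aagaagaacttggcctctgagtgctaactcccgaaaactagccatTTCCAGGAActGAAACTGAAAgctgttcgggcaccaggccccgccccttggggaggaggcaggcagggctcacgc
Tgtp1, chr11:48992247-48992366, minus strand: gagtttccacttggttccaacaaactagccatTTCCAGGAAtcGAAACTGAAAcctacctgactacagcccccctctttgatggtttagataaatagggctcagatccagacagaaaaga
Tgtp2, chr11:49064213-49064332, minus strand: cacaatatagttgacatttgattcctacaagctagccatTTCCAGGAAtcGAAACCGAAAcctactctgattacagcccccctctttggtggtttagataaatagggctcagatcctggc
Irgm1, chr11:48871421-48871540, minus strand: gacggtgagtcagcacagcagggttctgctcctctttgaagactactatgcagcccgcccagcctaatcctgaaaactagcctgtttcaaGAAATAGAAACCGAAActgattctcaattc
Gbp2, chr3:142620543-142620662, plus strand: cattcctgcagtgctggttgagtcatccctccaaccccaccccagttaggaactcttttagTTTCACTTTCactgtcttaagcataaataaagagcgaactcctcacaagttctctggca
Gbp3, chr3:142559924-142560043, plus strand: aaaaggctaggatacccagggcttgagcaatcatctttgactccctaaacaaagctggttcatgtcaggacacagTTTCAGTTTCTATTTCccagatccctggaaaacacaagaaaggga
Gbp5, chr3:142496814-142496933, plus strand: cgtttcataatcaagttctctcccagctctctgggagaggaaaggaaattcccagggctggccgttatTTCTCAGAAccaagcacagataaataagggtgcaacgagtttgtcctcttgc
Gbp7, chr3:142530216-142530335, plus strand: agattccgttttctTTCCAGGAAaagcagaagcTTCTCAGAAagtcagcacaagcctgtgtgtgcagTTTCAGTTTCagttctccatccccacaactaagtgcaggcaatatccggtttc

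All 6 matched genes had at least 1 ISRE core in the 300-base window, and 3 of them, Gbp5, Gbp7 and Igtp, also had a GAS match. Among all 32851 windows in the table, 3.44% held an ISRE core, 8.30% a GAS and 0.454% both. In Igtp the GAS began 45 bases before the annotated start and the ISRE core 34 bases before it, so that the second began 11 bases after the first. The same order and spacing was found in Irgm2, Tgtp1 and Tgtp2. It occurred in 5 of all windows (0.0152%), the other being that of the predicted gene Gm12185, which shares transcript sequence with Tgtp1 and Tgtp2. The spacing was chosen after these sequences were read, and the genes are paralogs with similar sequence around the sites. Windows were found for 8 other family genes, of which 6 held an ISRE core. Ifi47 and 9930111J21Rik2, the latter called lower below, held neither motif. In 9930111J21Rik1 the only match was an ISRE core beginning at base 27 after the start. Gm12250 held a GAS and 2 ISRE cores without that spacing. Irgm1 and Gbp3 each held a pair of overlapping ISRE cores and no GAS, in opposite orientation, beginning 30 and 24 bases before the start in Irgm1 and 45 and 39 bases before it in Gbp3. The log2 differences of these 2 genes, given below, were -0.49 and 0.16. The RefSeq start lies inside the deposited gene model for Gbp2, Gbp3, Gbp5, Irgm1, Irgm2, Tgtp1 and 9930111J21Rik1, so positions count from RefSeq starts only. For Gm12250 the whole window, which ends at 58183892, lies before the deposited gene model, which starts at 58187739. In Gbp5 another GAS and the ISRE core lay 245 and 165 bases before the start. A second window of Gbp3 held neither motif. A match describes letters in a window and does not show that a factor was bound.

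**Figure D1:**
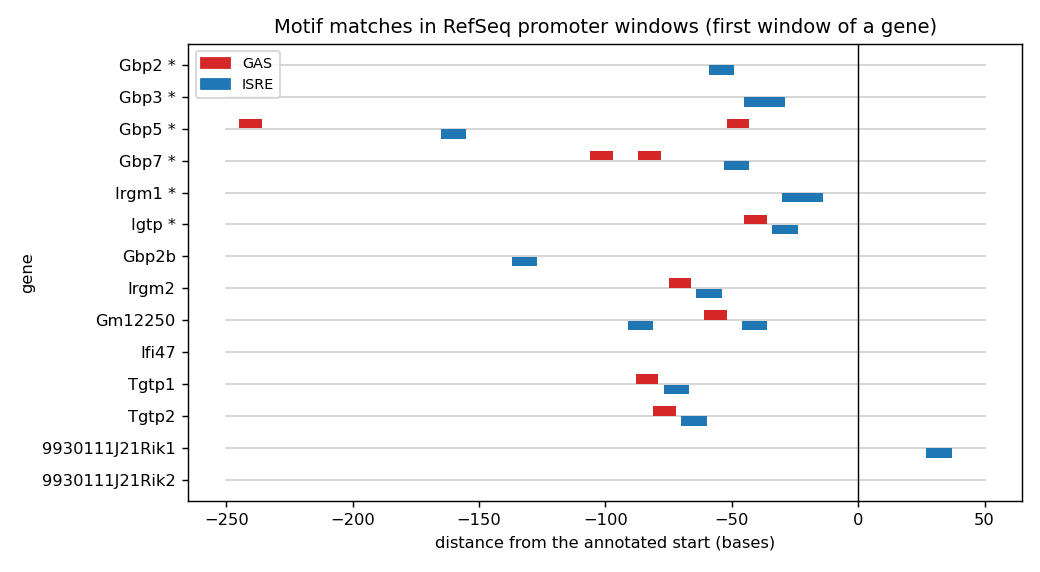
Matches to GAS (red) and to the ISRE core (blue) along the RefSeq promoter windows of 14 GTPase genes, by distance from the annotated start in bases (vertical line); asterisks mark the genes of the fixed list of 10, and gray lines show the extent of each window. In Igtp, Irgm2, Tgtp1 and Tgtp2 a GAS is followed by an ISRE core that begins 11 bases later.

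Igtp encodes Irgm3, a regulator of effector IRGs found on the endoplasmic reticulum and on lipid droplets. Its gene lies on chromosome 11 at 58199556 to 58207591 (plus strand, mm10). Igtp was at 39.7, 41.1 and 36.2 RPKM in the floxed libraries and at 27.1, 28.5 and 28.2 RPKM in the cKO libraries. The lowest floxed library still lay well above the highest cKO library. Igtp fell to 71.6% of the floxed level, with a log2 difference of -0.47 (SE 0.06, 95% confidence interval -0.61 to -0.32; limma adjusted p = 0.0222). The call was lost when floxed replicate 1 or 2 or any of the 3 cKO replicates was left out (adjusted p = 0.0707 to 0.0914) and kept without floxed replicate 3 (adjusted p = 0.0329). Its exons overlap those of Irgm2 over 162 bases on the same strand, 8.01% of the exon bases of Igtp.

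Irgm1, whose product regulates effector IRGs and autophagy and is needed for the survival of lymphocytes during infection, lies on chromosome 11 at 48861968 to 48871683 (minus strand). It was the lowest of the 10 genes, at 15.7, 14.7 and 13.6 RPKM in the floxed libraries and 9.50, 11.2 and 9.81 RPKM in the cKO libraries. The groups did not overlap, and the cKO mean was 69.4% of the floxed mean. The log2 difference was -0.49 (SE 0.09, interval -0.69 to -0.28), and it narrowly missed the threshold in limma (adjusted p = 0.0583). It passed with voom (adjusted p = 0.000179) and with a filter of 5 RPKM (adjusted p = 0.0360). In the other 11 of 13 alternative fits it did not pass, among them each fit without 1 library (limma adjusted p = 0.0905 to 0.188). Irgm1 shares no exon base with another gene of the table, and 0.379% of its 50-base stretches in GENCODE M21 transcripts recur in another gene.

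The GBP genes of the list form clusters on chromosomes 3 and 5. On chromosome 5, Gbp6 is a member for which a role in defence against bacteria has been reported. Gbp6 was at 30.0, 31.5 and 28.9 RPKM in the floxed libraries and at 24.1, 23.0 and 24.2 RPKM in the cKO libraries. All cKO values lay below the floxed values, and Gbp6 fell to 78.9% of the floxed level (log2 difference -0.33, SE 0.05, interval -0.46 to -0.20; limma adjusted p = 0.0434). Leaving out any 1 of the 6 libraries ended the call (adjusted p = 0.0966 to 0.159). It was also lost after median-of-ratios scaling (adjusted p = 0.0532).

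Reads of Gbp6 cannot be assigned to that gene alone. Of its 50-base transcript stretches, 70.7% recur in another gene, chiefly in the predicted gene Gm43302 and in Gbp10, and 29.0% of its exon bases lie inside Gm43302 on the same strand. Gm43302, chosen after its value was seen, fell from 40.3 ± 1.63 to 31.6 ± 0.767 RPKM (SD, n = 3 each; limma adjusted p = 0.0309), a call lost when any library was left out. Gbp10 was at 15.1, 14.8 and 18.2 RPKM in floxed and 11.95, 9.23 and 11.87 RPKM in cKO libraries (adjusted p = 0.140). Reads of the 3 genes added up to 411, 425 and 409 RPM (reads scaled to library size, without gene length) in the floxed libraries and 326, 306 and 330 RPM in the cKO libraries. The sum was at 77.2% of the floxed level. Gbp6 and Gbp10 each had cKO values below the floxed values on their own. The sum is therefore no separate evidence and does not show which of the genes fell.

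The other chromosome 5 genes, Gbp4, Gbp8 and Gbp9, were among the most abundant of the 10 and differed less between groups. Gbp4 was at 55.8, 56.3 and 54.8 RPKM in floxed and 51.5, 49.3 and 48.9 RPKM in cKO libraries, with no overlap (log2 difference -0.15, interval -0.26 to -0.05; limma adjusted p = 0.180, voom adjusted p = 0.0360). Gbp8 was at 105.7, 112 and 110.5 RPKM in floxed and 102, 103 and 98.5 RPKM in cKO libraries (log2 difference -0.11, interval -0.21 to -0.01; adjusted p = 0.305). For Gbp9 the floxed libraries gave 63.8, 66.2 and 65.3 RPKM and the cKO libraries 60.5, 59.6 and 62.7 RPKM (log2 difference -0.09, interval -0.19 to 0.01; adjusted p = 0.384). In all 3 genes the cKO values lay below the floxed values, and the cKO mean was 89.7, 92.5 and 93.6% of the floxed mean in Gbp4, Gbp8 and Gbp9. Their gene models share a first exon of 60 or 61 bases.

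The chromosome 3 genes differed in direction. Gbp3 was the only one of the 10 with higher values in the cKO libraries, at 65.7, 60.0 and 61.1 RPKM in floxed and 70.6, 68.2 and 70.3 RPKM in cKO libraries. The groups did not overlap, but the log2 difference of 0.16 (SE 0.05, interval 0.05 to 0.28) did not pass (limma adjusted p = 0.211, voom adjusted p = 0.0929). Gbp5, which has been linked to inflammasome assembly, was at 17.9, 17.5 and 18.0 RPKM in floxed and 16.2, 15.9 and 13.8 RPKM in cKO libraries (log2 difference -0.21, interval -0.38 to -0.04; adjusted p = 0.277). The low value of cKO replicate 3 widened the spread of Gbp5, which had a coefficient of variation of 8.63% in the cKO group and 1.56% in the floxed group. The mean log2 difference without that library was -0.14.

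Gbp7 and Gbp2 had overlapping groups. Gbp7, which is known to help recruit the NADPH oxidase to bacteria, was at 48.1, 49.7 and 49.1 RPKM in floxed and 43.6, 45.5 and 48.1 RPKM in cKO libraries (log2 difference -0.10, interval -0.22 to 0.02; limma adjusted p = 0.458). Gbp2, a prenylated GBP that coats the vacuole of Toxoplasma, was at 27.9, 28.3 and 26.4 RPKM in floxed and 29.1, 25.9 and 25.3 RPKM in cKO libraries (log2 difference -0.04, interval -0.20 to 0.12; adjusted p = 0.845). The lower bounds of both intervals lay above the estimate for Igtp. The predicted gene Gm43802 covers 11.3% of the exon bases of Gbp7 on the same strand.

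**Figure D2:**
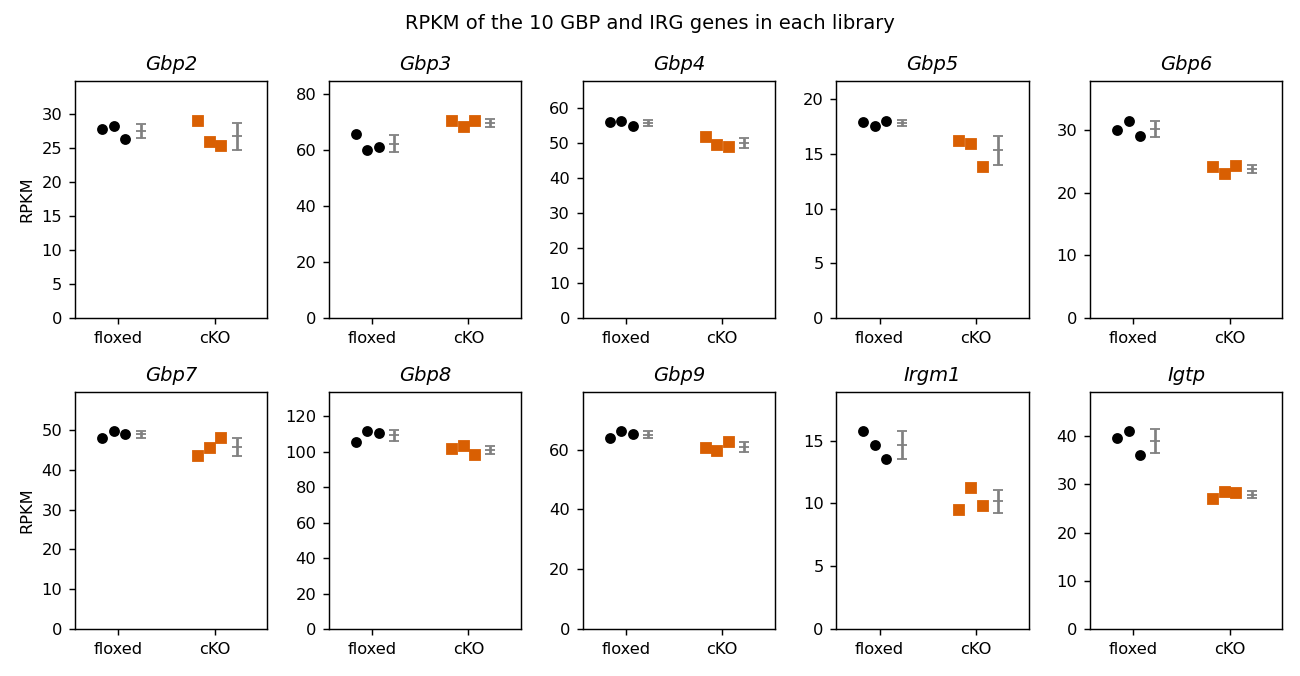
RPKM of the 10 genes in each library, with floxed libraries as black circles, cKO libraries as orange squares, and gray bars for the mean ± SD of 3 libraries; every axis starts at 0. The cKO mean is lowest relative to the floxed mean in Irgm1 (69.4%), Igtp (71.6%) and Gbp6 (78.9%), Gbp3 lies higher in the cKO libraries, and the groups overlap in Gbp2 and Gbp7.

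RPKM is scaled to gene length, and levels were ordered across genes on that basis. The order also depends on sequence shared with other genes. The place of Gbp6, with 70.7% of its 50-base stretches shared, is therefore uncertain. In the floxed libraries Gbp8 was highest at 109 ± 3.16 RPKM (SD, n = 3), followed by Gbp9 at 65.1 ± 1.22, Gbp3 at 62.3 ± 3.04, Gbp4 at 55.6 ± 0.766 and Gbp7 at 49.0 ± 0.820 RPKM. Igtp at 39.0 ± 2.52, Gbp6 at 30.1 ± 1.28, Gbp2 at 27.5 ± 1.01, Gbp5 at 17.8 ± 0.277 and Irgm1 at 14.7 ± 1.09 RPKM came next. Only Gbp9 and Gbp3, of the neighbours in this floxed order, had overlapping values. In the cKO libraries the order changed at 2 places. Gbp3 at 69.7 ± 1.29 RPKM stood above Gbp9 at 60.9 ± 1.62 RPKM with no overlap, and Gbp2 at 26.8 ± 2.02 RPKM stood above Gbp6 at 23.8 ± 0.651 RPKM. Igtp, at 27.9 ± 0.757 RPKM, there overlapped with Gbp2. Among the 12731 tested genes, Gbp8 ranked 537 and Irgm1 ranked 4408 by mean RPKM over the 6 libraries.

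Summed by cluster, the 4 genes on chromosome 3 came to 159.5, 155.5 and 154.6 RPKM in the floxed libraries and 159.4, 155.5 and 157.6 RPKM in the cKO libraries, and the groups overlapped. The 4 genes on chromosome 5 came to 255.2, 265.6 and 259.5 RPKM in floxed and 237.9, 235 and 234.2 RPKM in cKO libraries, 90.6% of the floxed level. The 2 IRG genes came to 55.4, 55.7 and 49.7 RPKM in floxed and 36.6, 39.7 and 38.0 RPKM in cKO libraries, 71.0% of the floxed level. Set against the sum of the 8 GBP genes in the same library, the IRG sum was 13.4, 13.2 and 12.01% in the floxed libraries and 9.20, 10.2 and 9.69% in the cKO libraries. These sums are descriptions, and the difference between GBP and IRG genes was not tested.

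A list of 16 further GTPase genes held 11 that were tested, of which 3 fell and 8 did not pass. With voom 9 of the 11 were called lower. Among all tested genes 0.668% were called lower by limma and 2.42% by voom. Irgm2, the remaining regulator of the GMS subfamily, fell from 14.0 ± 1.22 to 8.95 ± 0.724 RPKM (SD, n = 3 each; limma adjusted p = 0.0336). The effector gene Tgtp2 fell from 33.6 ± 2.06 to 24.7 ± 0.688 RPKM (adjusted p = 0.0249), and the IRG gene 9930111J21Rik2 fell from 49.0 ± 1.47 to 38.7 ± 1.28 RPKM (adjusted p = 0.0286). Leaving out any single library ended each of these 3 calls (adjusted p = 0.0623 to 0.127). The median log2 difference over the 11 genes was -0.43, against -0.03 over all tested genes, and the cKO values of each of the 11 lay below its floxed values, as they did in 12.7% of all tested genes.

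The other tested effector genes did not pass in limma, with log2 differences from -0.69 to -0.19. Iigp1, whose product Irga6 is the best studied effector IRG, was at 4.56, 3.32 and 4.16 RPKM in floxed and 1.97, 2.23 and 2.08 RPKM in cKO libraries. Its log2 difference of -0.69 was the most negative of the family, on 138 to 309 reads per library (limma adjusted p = 0.0625, voom adjusted p = 0.00518). Gm12250, which encodes the effector Irgb10, was at 17.5 ± 1.70 and 12.5 ± 2.75 RPKM (adjusted p = 0.239), and Ifi47, which encodes Irgd, at 13.9, 13.0 and 11.9 RPKM in floxed and 8.05, 8.45 and 10.9 RPKM in cKO libraries (limma adjusted p = 0.156, voom adjusted p = 0.0177). Tgtp1 was at 15.2 ± 0.231 and 11.8 ± 1.10 RPKM (limma adjusted p = 0.118, voom adjusted p = 0.0287), and 9930111J21Rik1 at 17.0 ± 1.75 and 14.7 ± 0.260 RPKM (adjusted p = 0.358). Tgtp1 and Tgtp2 share most of their sequence (81.2% and 86.6% of their 50-base stretches recur in another gene). Their reads summed to 154, 146 and 142 RPM in floxed and 108.4, 108.1 and 115 RPM in cKO libraries. That sum was at 74.9% of the floxed level. Both genes had cKO values below the floxed values on their own, so the sum could not overlap and is no separate evidence. Of the 50-base stretches of 9930111J21Rik1 and 9930111J21Rik2, 83.2 and 59.8% recur in another gene, chiefly in each other. The separate values of this pair, and the call of 9930111J21Rik2, are thus uncertain, and the pair was not summed.

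Counted together, 10 IRG genes and 9 GBP genes were tested, some of which share sequence and so are not separate measurements. Of the IRG genes 4 fell and 6 did not pass, and all 10 had cKO values below the floxed values, with a median log2 difference of -0.47. Of the GBP genes 1 fell and 8 did not pass, and 6 had cKO values below the floxed values, with a median of -0.11. With voom 8 IRG genes and 3 GBP genes were called lower. The shares over all tested genes were 0.668% for a lower call in limma, 2.42% for one in voom and 12.7% for cKO values all below the floxed values. The very large inducible GTPases Gvin1 and Gm4070, which share nearly all of their sequence, were at 259 ± 7.45 and 240.1 ± 6.99 RPKM (adjusted p = 0.302) and at 189 ± 6.50 and 169.7 ± 2.45 RPKM (adjusted p = 0.164). Gbp2b and Gbp11 (at most 1.09 RPKM in any library) and the IRG-like genes Gm4951, Gm4841 and F830016B08Rik (at most 0.489 RPKM) were below the filter.

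**Figure D3:**
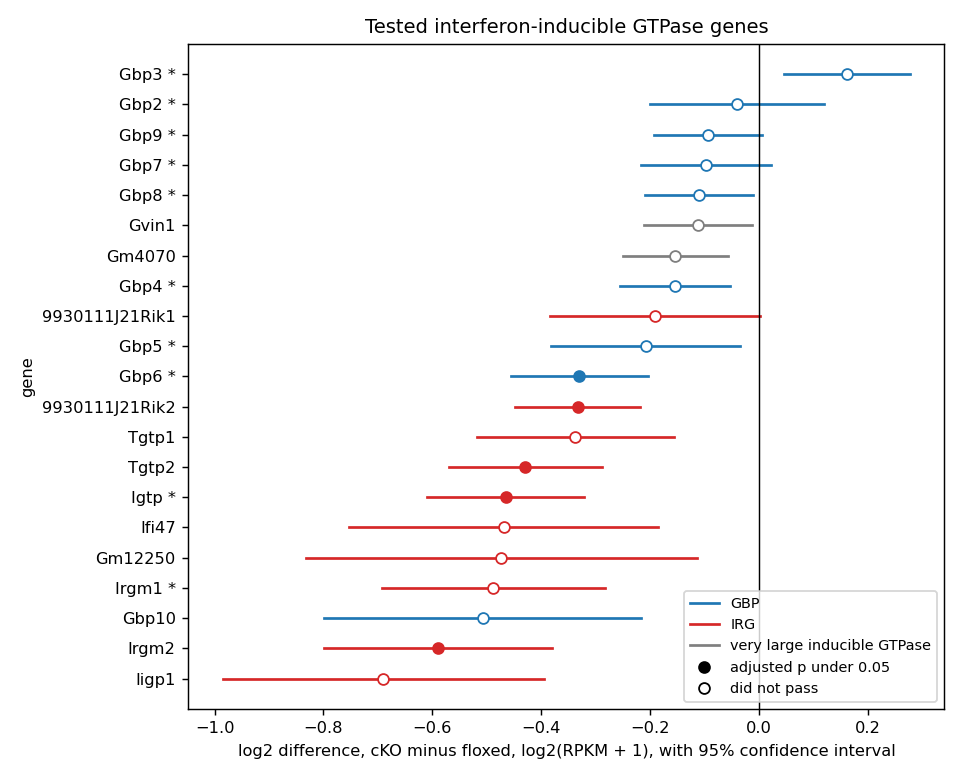
Log2 difference between cKO and floxed libraries for the 21 tested GTPase genes on the log2(RPKM + 1) scale, with 95% confidence intervals from limma; blue marks GBP, red IRG and gray very large inducible GTPase genes, filled points passed at an adjusted p under 0.05, and asterisks mark the fixed list of 10. IRG genes occupy most of the lower end, from -0.69 for Iigp1 to -0.19 for 9930111J21Rik1, and Gbp3 is the single gene above 0.

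The signalling chain that induces these genes did not move in a single direction. Ifng, the ligand, was at 63.7, 55.8 and 59.4 RPKM in floxed and 69.3, 67.1 and 68.1 RPKM in cKO libraries, higher in every cKO library but without passing (log2 difference 0.19, limma adjusted p = 0.201). The receptor gene Ifngr1 was at 192, 204 and 187 RPKM in floxed and 159, 161 and 165 RPKM in cKO libraries, without overlap (log2 difference -0.26, adjusted p = 0.0551). It passed with voom (adjusted p = 0.000227) and with a filter of 5 RPKM (adjusted p = 0.0363). With any 1 library left out it did not pass (limma adjusted p = 0.101 to 0.188). Ifngr2, the gene of the other chain, rested on 8 to 32 reads per library, below the filter in both groups.

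Among the kinases, Jak1 rose from 177 ± 1.96 to 216 ± 2.98 RPKM (SD, n = 3 each; limma adjusted p = 0.0164), and Jak2 was at 56.5 ± 3.38 and 56.0 ± 2.60 RPKM (adjusted p = 0.957). The call of Jak1 was lost when floxed replicate 1 or 3 or any cKO replicate was left out (adjusted p up to 0.0892). The transcription factor gene Irf1 gave 66.2, 64.6 and 63.6 RPKM in floxed and 74.0, 75.0 and 74.1 RPKM in cKO libraries (log2 difference 0.20, limma adjusted p = 0.0782). The groups of Irf1 were apart, and it passed with voom (adjusted p = 0.0136). It did not pass with any 1 library left out (limma adjusted p = 0.136 to 0.256). Socs3, whose product restrains cytokine receptors, rose from 70.0 ± 3.37 to 101 ± 2.70 RPKM (adjusted p = 0.00606). Ptpn6, which encodes the phosphatase SHP-1, was at 153 ± 4.10 and 146 ± 5.23 RPKM (adjusted p = 0.544). Of the 15 tested genes of the chain, 2 rose and 13 did not pass, with a median log2 difference of 0.02. Among all tested genes limma called 0.652% higher and 0.668% lower. At an unadjusted limma p under 0.05, 4 of the 15 were higher and 2 lower, against 5.55 and 8.60% of all tested genes. Voom called 3 higher and 2 lower, against 1.76 and 2.42%.

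Other targets of interferon-γ, outside these GTPase families, gave no call in limma. Of the 19 tested, none passed in either direction in limma, against 0.652% of all tested genes higher and 0.668% lower. At an unadjusted limma p under 0.05, 2 were higher and 2 lower, against 5.55 and 8.60% of all tested genes. Voom called 1 higher and 1 lower, against 1.76 and 2.42%. The median log2 difference of the 19 genes was -0.03. B2m, the light chain of MHC class I, was at 613 ± 38.7 and 599 ± 12.9 RPKM (adjusted p = 0.843). The proteasome activator gene Psme1 was at 502 ± 15.2 and 549 ± 28.6 RPKM (adjusted p = 0.326), and Psme2 at 95.8 ± 7.35 and 90.8 ± 7.62 RPKM (adjusted p = 0.735). The serpin gene Serpina3g was at 256 ± 2.89 and 254 ± 10.2 RPKM (adjusted p = 0.950). Parp14, named after its values were seen, was at 35.5, 38.9 and 38.2 RPKM in floxed and 31.5, 32.8 and 30.5 RPKM in cKO libraries, without overlap (log2 difference -0.24, limma adjusted p = 0.127, voom adjusted p = 0.00246).

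Targets of type I interferon had a median log2 difference of -0.21 over 25 tested genes, of which 24 lay below 0. Of these, 3 fell, namely Ifit3, Mx1 and Rsad2, against 0.668% of all tested genes, and 22 did not pass. At an unadjusted limma p under 0.05, 12 were lower, voom called 4 lower, and 16 had cKO values all below the floxed values, against 8.60, 2.42 and 12.7% of all tested genes. Ifit3, of the antiviral IFIT family, was at 109, 107 and 107 RPKM in floxed and 79.3, 74.0 and 82.4 RPKM in cKO libraries (limma adjusted p = 0.0110). Its call was lost without floxed replicate 3 (adjusted p = 0.0606) or cKO replicate 1 (adjusted p = 0.0543). Mx1, a dynamin-like antiviral GTPase, fell from 27.4 ± 0.920 to 21.9 ± 0.376 RPKM, and the gene of the antiviral enzyme viperin, Rsad2, from 4.37 ± 0.567 to 1.98 ± 0.356 RPKM (SD, n = 3 each; limma adjusted p = 0.0412 and 0.0419). Leaving out any 1 library ended the calls of Mx1 (adjusted p = 0.0847 to 0.162) and of Rsad2 (adjusted p = 0.0705 to 0.141), and scaling ended that of Mx1 (adjusted p = 0.0515). The median lay between that of the GBP genes (-0.11) and that of the IRG genes (-0.47). These lists contain genes that answer to both kinds of interferon, and the differences between lists were not tested.

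**Figure D4:**
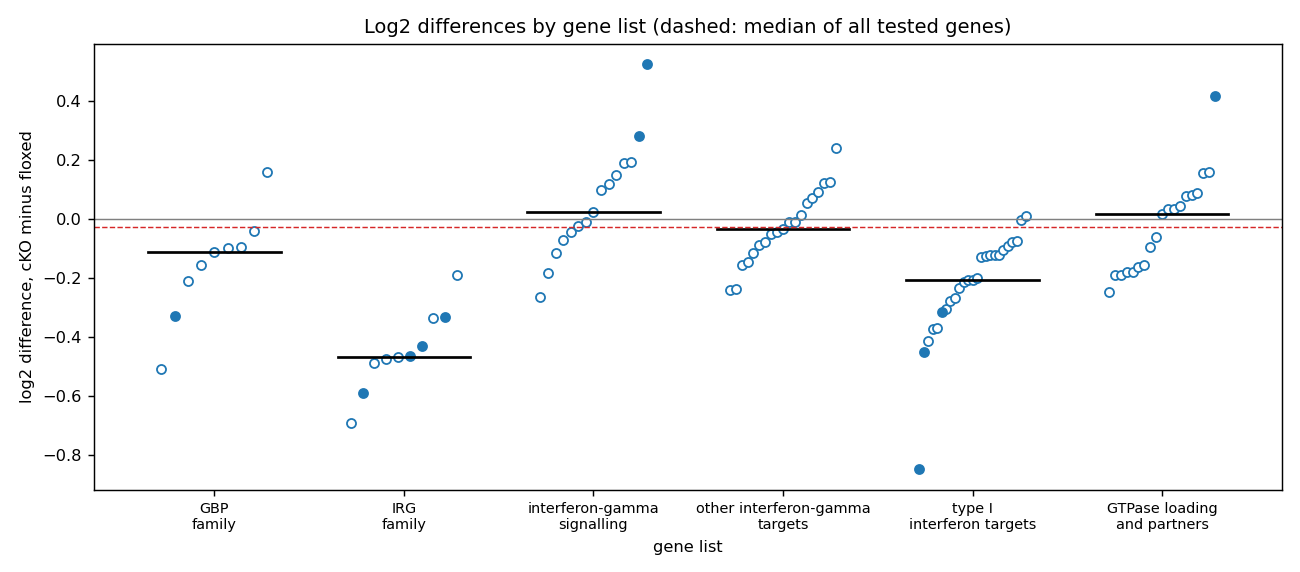
Log2 difference between cKO and floxed libraries for each tested gene of 6 lists; filled points passed in limma, black bars are list medians, and the dashed line is the median of all tested genes. Medians were -0.11 for GBP genes, -0.47 for IRG genes, 0.02 for interferon-γ signalling, -0.03 for other interferon-γ targets, -0.21 for type I interferon targets and 0.02 for genes of GTPase loading and partners.

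The genes of proteins that load GBPs and IRGs onto membranes or act with them mostly did not pass the test. The list held conjugation factors and ATG8 proteins of autophagy, which direct both families to vacuoles, prenylation enzymes, which attach the lipid of prenylated GBPs, and inflammasome genes. Of 19 tested genes 1 rose, against 0.652% of all tested genes, and 18 did not pass, with a median log2 difference of 0.02. The gene that passed was Sqstm1, which encodes the autophagy adaptor p62, from 115 ± 2.64 to 154 ± 2.67 RPKM (SD, n = 3 each; limma adjusted p = 0.00563). None was called lower by limma or by voom, against 0.668 and 2.42% of all tested genes. Only Gsdmd was lower with an unadjusted limma p under 0.05, against 8.60% of all tested genes. Of the 19, 10 lay above 0 and 9 below, among the latter all 4 inflammasome genes (median -0.17). Among the 19, 3 had cKO values all below the floxed values and 1 all above, against 12.7 and 7.61% of all tested genes. Those 3 were inflammasome genes, and the subgroups were not tested. Gsdmd, which encodes the pore-forming protein of pyroptosis, was at 42.0 ± 1.38 and 37.1 ± 2.61 RPKM (adjusted p = 0.275), and Casp1, which encodes the protease that cleaves it in canonical inflammasomes, at 44.6 ± 4.71 and 39.1 ± 0.950 RPKM (adjusted p = 0.364). The DNA sensor gene Aim2 was at 29.6 ± 2.41 and 26.3 ± 0.811 RPKM (adjusted p = 0.360), and Atg3, which encodes a conjugation enzyme of ATG8 proteins, at 45.5 ± 1.30 and 46.7 ± 4.16 RPKM (adjusted p = 0.879).

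Markers of ILC1s and natural killer cells were present in every library. Summed over 11 genes, they came to 841 to 856 RPKM in floxed and 675 to 702 RPKM in cKO libraries. Limma called 1 higher and 3 lower, against 0.652 and 0.668% of all tested genes, and voom 1 and 5, against 1.76 and 2.42%. At an unadjusted limma p under 0.05, 1 was higher and 7 lower, against 5.55 and 8.60%. In 7 all cKO values lay below the floxed values, against 12.7%. The median log2 difference of these markers was -0.26, against -0.13 for the 10 GBP and IRG genes. GBPs and IRGs are also expressed by macrophages and other cells. Summed macrophage markers came to 41.0 to 48.2 RPKM in floxed and 35.5 to 39.4 RPKM in cKO libraries over 8 genes, carried by Lyz2 and Marco, while Adgre1 stayed at 0.138 to 0.234 RPKM and Fcgr1 at 0 to 0.153 RPKM. None of the 4 tested macrophage markers passed in limma or with voom. Among them 1 was lower with an unadjusted limma p under 0.05, against 8.60% of all tested genes. Summed B cell markers came to 13.4 to 13.6 and 7.83 to 8.90 RPKM over 6 genes, of which Cd22 fell among 2 tested. Summed T cell markers came to 59.3 to 62.8 and 53.9 to 59.6 RPKM over 7 genes, of which Cd3e fell among 5 tested. Limma called 0.668% of all tested genes lower. Neutrophil markers summed to at most 1.65 RPKM over the 4 of 6 genes in the table, with Ly6g at 0 in all floxed libraries. The summed dendritic cell markers, carried by Itgax, were at 55.6 to 64.9 and 64.6 to 71.3 RPKM, and stromal and endothelial markers, carried by Pecam1, at 17.4 to 17.5 and 13.9 to 16.1 RPKM.

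The same cKO libraries had 9.09 to 9.86 RPKM of Xist against 28.3 to 34.2 RPKM in the floxed libraries, and 20.5 to 21.3 RPKM of the Y-linked Ddx3y against 10.02 to 10.995 RPKM. Both genes were thus read in every library, as in a mix of RNA from both sexes, though the labels do not say whether a library pooled animals. Their levels set all cKO libraries apart from all floxed libraries. The share of each sex and the genotype therefore cannot be told apart in these libraries. Of 15 tested immediate-early and stress genes 12 rose, against 0.652% of all tested genes, with a median log2 difference of 0.74. The part of these differences in the values of the GBP and IRG genes was not tested.

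**Figure D5:**
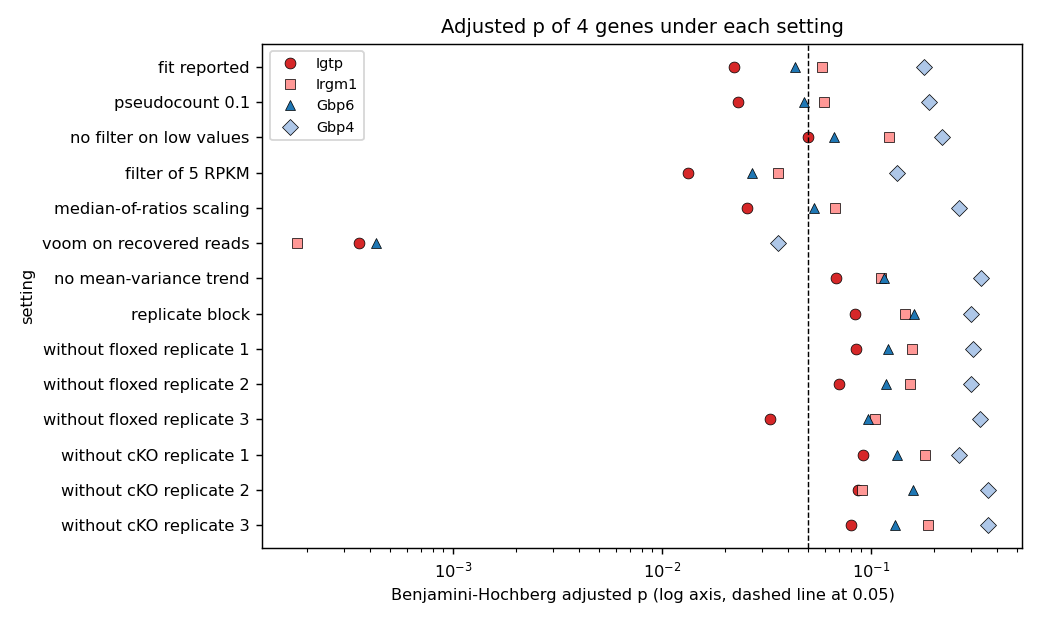
Benjamini-Hochberg adjusted p of Igtp, Irgm1, Gbp6 and Gbp4 in the reported fit and under 13 alternatives, on a log axis with the threshold of 0.05 as a dashed line. All 4 genes pass with voom on recovered reads, and Igtp passes in 6 of the 14 fits shown.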

How the data were processed

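The authors deposited 1 table of RPKM values for 6 libraries, with exon coordinates and a gene length for each gene. Per the submitters' processing notes, the tools were edgeR 3.12.1, Subread 1.5.1 with featureCounts, and STAR 2.5.3a, on mm10. Not given in the sources used here: strand setting, duplicate handling and annotation. Per the labels' protocols, RNA was extracted with TRIzol and entered a stranded mRNA kit. RPKM times length gave whole reads for 100% of values (within 0.01 reads), and their sums were the depths. Library pairs differed by a chi-square of 4.96 to 5.47 per gene within groups (genes with 20 to 100 summed reads), above the noise of independent reads. This spread does not show whether libraries came from separate animals, and each was entered as 1 replicate.

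limma 3.58.1 (R 4.3.3; lmFit, eBayes with trend, two-sided) was fitted to log2(RPKM + 1) of genes with at least 1 RPKM in 3 of 6 libraries, without covariates, and tested on simulated data. The + 1 understates changes of low genes. Alternatives were another pseudocount, other filters, scaling, voom, no trend, a replicate block and leaving out each library. The 10 genes and all lists were chosen with earlier results of these data known. All 10 are named, and of other lists up to 4 passing genes by p and up to 4 others by level, beside the main genes of the signalling chain. Promoters came from RefSeq (GRCm38.p6), and shared 50-base stretches from GENCODE M21 transcripts; both strands were searched.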

Additional observations from a re-analysis of the deposited data

How the results depend on the processing

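The reported fit called 83 genes higher and 85 lower, 2 of the 10 GBP and IRG genes among them. Without a filter on low values the counts were 44 higher, 36 lower and 0 of the 10. Without the mean-variance trend they were 39, 35 and 0. With voom on recovered reads they were 224, 308 and 4. With the replicate number as a block they were 37, 23 and 0. Median-of-ratios scaling left 1 of the 10 and moved their median log2 difference from -0.13 to -0.10. Leaving out 1 library left 33 to 51 higher genes, 27 to 39 lower genes and 0 to 1 of the 10. The log2 differences of the 10 genes kept their sign in all 130 refits, of which 109 kept the side of the threshold as well, 18 lost a call and 3 gained one. The log2 difference of Jak2 changed sign under scaling (0.018) and ranged from -0.057 to 0.028 when 1 library was left out, being above 0 without floxed replicate 2 or cKO replicate 3. The correlation of deviations between libraries with the same number was -0.03, 0.01 and 0.04. Between libraries with different numbers it ranged from -0.098 to 0.086. With 3 libraries per group this cannot show whether equal numbers mean a shared preparation. The block and each left-out library also use up residual degrees of freedom. If recovered reads were independent, counting error alone would give a coefficient of variation of 1.08 to 2.63% for the 10 genes. Recovered reads of the low genes Ifngr2 and Cxcl9 were even numbers in every library, so reads may not be independent. Counting error would then be larger.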
